A study of Rattus norvegicus with 21 samples.

Results

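The genes described here encode the respiratory chain and ATP synthase subunits that lie in nuclear DNA: complex I (NADH dehydrogenase, Nduf genes), complex II (succinate dehydrogenase, Sdha to Sdhd), complex III (cytochrome bc1, Uqcr genes), complex IV (cytochrome c oxidase, Cox4 to Cox8 genes) and complex V (ATP synthase, Atp5 genes). They were chosen by symbol from a table of 17311 gene rows. A total of 80 rows matched, and the 75 with at least 30 counts over the 9 libraries are the members: 34 of complex I, 4 of complex II, 8 of complex III, 13 of complex IV and 16 of complex V. All 75 also passed the test's filter on low counts. The 5 rows under the minimum were Cox8b with 20 counts, Atp5f1 with 16, and Ndufa1, Cox8c and the pseudogene Cox6c-ps1 with 0, and the nearest rows above it were Cox6a2 with 62 and Ndufa4l2 with 106. The symbol rule also caught Cox7a2l, Atp5s and Atp5sl, which are not structural subunits of complexes IV or V. It placed Ndufa4 with complex I, although this protein is now counted as part of complex IV in mammals. Cox6b1, Cox7a1, Atp5k and the 13 subunits encoded by mitochondrial DNA had no row under the symbols searched, so they could not be analysed here.

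The respiratory chain passes electrons from NADH and succinate to oxygen through complexes I to IV and pumps protons across the inner mitochondrial membrane, and complex V uses the resulting gradient to make ATP. Most subunits are nuclear genes whose proteins are imported and joined to a small core made inside the mitochondrion, so the supply of many mRNAs has to match. Nuclear respiratory factor 1 (NRF1), the ETS-family factor GABP and YY1 are known regulators of their promoters. Astrocytes respire but also rely strongly on glycolysis.

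Cells were primary astrocytes of Sprague-Dawley rats, taken from neonatal pups, used at passages 2-3 and transfected with small interfering RNA (siRNA) by a lipid reagent. Each of 3 groups had 3 poly(A) RNA libraries: scrambled siRNA, which is the control, siRNA against TDP-43, and TDP-43 siRNA with ATP, a nucleotide that outside cells acts as a signal through purinergic receptors. TDP-43, the product of Tardbp, binds RNA. The sources used here give neither the dose nor the duration of ATP, and no group received scrambled siRNA and ATP, so what ATP does without the knockdown was not measured, and the group with both treatments differs from the control by both. The labels give 1 kind of TDP-43 siRNA and do not say whether the libraries of a group are separate cultures or animals. Each p-value therefore reflects the library-to-library spread alone, which may be technical.

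Library totals ran from 11.49 M gene counts in scrambled replicate 2 to 40.29 M in scrambled replicate 1 (M, counts in 1e+06). Those with TDP-43 siRNA, with or without ATP, ran from 15.25 to 29.32 M. Tardbp stood at 158 to 179 CPM (counts scaled to 1e+06 per library, with TMM factors) with scrambled siRNA, 20.7 to 29.6 with TDP-43 siRNA and 24.1 to 28.8 with TDP-43 siRNA and ATP, and for each siRNA group against the control p was 0.1 (exact permutation test, two-sided), the smallest possible with 3 against 3. The summed CPM of 12 astrocyte markers ran from 5970 to 7210 with scrambled siRNA, 4522 to 5575 with TDP-43 siRNA and 5042 to 5775 with ATP added, and none of the 12, Gfap and Aqp4 among them, was at 0. The sums of 12 microglia, 10 oligodendrocyte lineage and 10 neuron markers stayed between 278 and 633 CPM in every library. Within that range the microglia sum ran from 358 to 411 with scrambled siRNA and from 278 to 352 with TDP-43 siRNA, without overlap. With ATP added it ran from 311 to 415. Of the 12 microglia markers 1 fell and 0 rose with TDP-43 siRNA, and 1 fell and 2 rose with ATP added. Those of 14 fibroblast, mural and endothelial markers, mostly Tagln and Acta2 counts, ran from 21541 to 22981 with scrambled siRNA, 5728 to 8241 with TDP-43 siRNA and 6321 to 6912 with ATP added, with Col1a2 and Cldn5 listed at 0. The astrocyte sum and this last sum each lay lower in both siRNA groups than in the control, without overlap, and each overlapped between those 2 groups. Of 11 tested astrocyte markers 6 fell and 1 rose with TDP-43 siRNA, and 5 fell and 1 rose with ATP added. Of 11 tested markers of the last list 7 fell and 1 rose in each. Of all genes tested, 18.2% fell with TDP-43 siRNA and 20% with ATP added. The part of any of these sums in the results was not tested.

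Subunit mRNA was lower where both TDP-43 siRNA and ATP were given, by a modest amount and across complexes I, III, IV and V. The summed CPM of the 75 members was 18530, 23304 and 22458 in the 3 scrambled libraries, 19059, 17979 and 18140 with TDP-43 siRNA, and 16482, 14660 and 14366 with TDP-43 siRNA and ATP. The libraries with ATP were the lowest 3 of all 9, whereas the lowest scrambled library lay inside the range of those with TDP-43 siRNA alone. The mean sum with TDP-43 siRNA was 85.8% of the scrambled mean, and with TDP-43 siRNA and ATP it was 70.8%. In bulk RNA, fewer cells of a type and less RNA per cell cannot be told apart. In edgeR's quasi-likelihood test over 12096 genes, at an adjusted p under 0.05, 55 of the 75 members fell and 1 rose against scrambled siRNA when ATP was present, that is 73.3% lower, where 20% of all genes tested were lower and 17.4% higher. With TDP-43 siRNA alone 11 fell and 1 rose, or 14.7% lower, where 18.2% of all genes were lower and 16.2% higher, so this share was near the background. The 2 comparisons share the scrambled libraries. None of the falls was as large as 2-fold, 28 of the 55 were at least 1.5-fold, and the median log2 change of the 75 was -0.51, against 0.01 for all genes. With TDP-43 siRNA alone the medians were -0.23 and 0.01, and 62 of the 75 changes were negative, where 5927 of 12096 genes were. In edgeR's test of that comparison, 23 members were lower and 2 higher at an unadjusted p under 0.05. Of the 12096 genes, 2732 were lower and 2608 higher at that threshold.

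**Figure D1:**
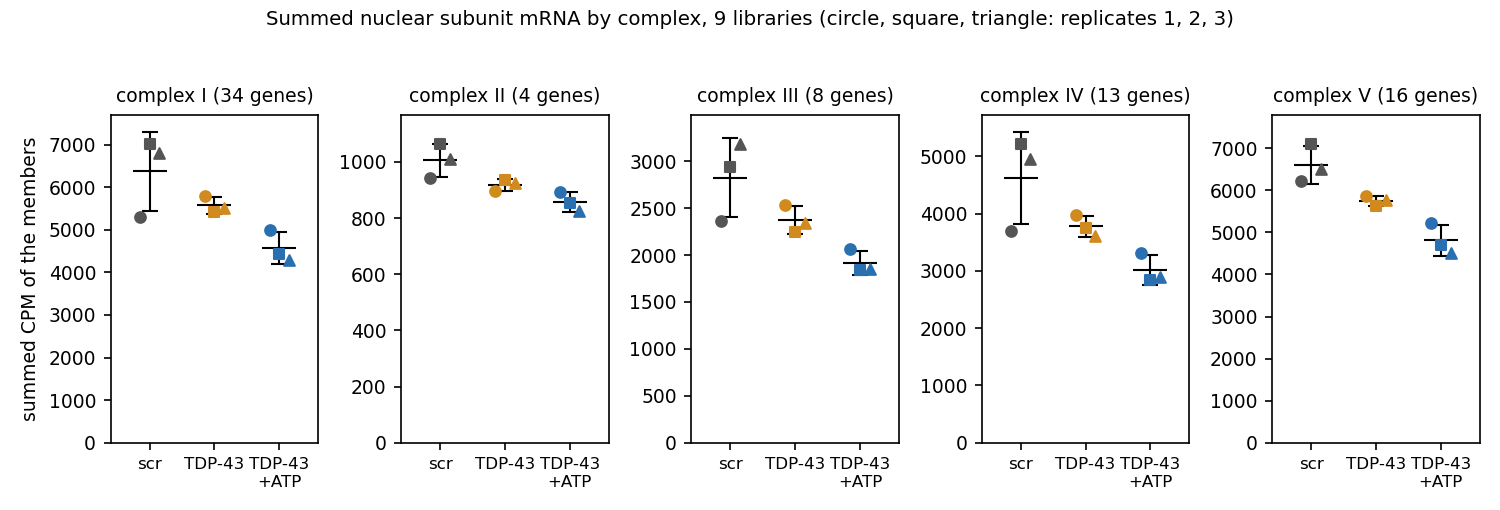
Summed CPM of the members of each complex (y axis, from 0) in the 9 libraries; symbols are replicates 1 to 3, lines the mean and bars the SD of 3 libraries for scrambled siRNA (scr), TDP-43 siRNA, and TDP-43 siRNA with ATP. The 3 libraries with ATP lie lowest in every complex, in complex II by a narrow margin, while scrambled replicate 1 (circle) is the lowest scrambled library in every panel.

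The number of members that passed after TDP-43 siRNA alone changed most when the first scrambled library was left out. That library had the lowest value of its group in 56 of the 75 members, and its members lay at a median of 0.26 below the group means on the log2 scale. Its total of gene counts, 40.29 M, was the largest of the 9. Its total in the deposited repeat-element table was 3.295 M counts against 14.55 to 39.05 M for the other libraries. The members' coefficient of variation had a median of 18.6% in the scrambled group, 7.93% with TDP-43 siRNA and 8.23% with ATP added, where all genes tested had 15.8%, 10.6% and 7.47%. Without that library, 38 members fell after TDP-43 siRNA alone in edgeR's test, where 19.2% of all genes were lower: 18 of complex I, 1 of II, 4 of III, 9 of IV and 6 of V. Without scrambled replicate 3 the count was 6, or 8% of the members, where 16.7% of all genes were lower. Without TDP-43 siRNA replicate 2 or 3 it was 7, or 9.33%, where 14.4% and 15.6% of all genes were lower. With TDP-43 siRNA and ATP the count was 55 with and without scrambled replicate 1, 53 of them the same genes. Over all libraries left out in turn it was 41 to 55, where 14.3% to 20.5% of all genes were lower. Of the 55, 34 kept their call in each of 16 alternatives, and 21 lost it in 1 or more, among them core and catalytic subunits named below.

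As the falls were spread over many genes, their promoters are shown first. RefSeq's 300-base windows, 250 bases before to 50 after the annotated start on GRCr8, were found for 64 of the 75 members. The 4 below have their NRF1, ETS and YY1 motifs in capitals: Ndufa5 (chr4:53971186-53971485, minus strand) has an NRF1 motif at position -32, the annotated start being position 0. It also has a GC box (GGGCGG) at -3, left in lower case. Cox8a (chr1:213833574-213833873, minus strand) has ETS motifs at -57 and -19 and a YY1 motif at -4. Uqcr10 (chr14:83791865-83792164, minus strand), with the deepest fall of all members, has a YY1 motif at 27. Sdha (chr1:30764303-30764602, plus strand), which did not pass in either comparison, has NRF1 motifs at -89, -46 and -1 and a YY1 motif at 38. Each sequence is written 5′ to 3′ on its gene's strand.
Ndufa5: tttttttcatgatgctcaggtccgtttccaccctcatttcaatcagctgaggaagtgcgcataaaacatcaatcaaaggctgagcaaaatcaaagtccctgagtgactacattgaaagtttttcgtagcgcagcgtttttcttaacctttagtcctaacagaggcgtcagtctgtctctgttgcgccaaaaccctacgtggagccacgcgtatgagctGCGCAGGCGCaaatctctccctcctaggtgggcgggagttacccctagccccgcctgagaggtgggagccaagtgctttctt
Cox8a: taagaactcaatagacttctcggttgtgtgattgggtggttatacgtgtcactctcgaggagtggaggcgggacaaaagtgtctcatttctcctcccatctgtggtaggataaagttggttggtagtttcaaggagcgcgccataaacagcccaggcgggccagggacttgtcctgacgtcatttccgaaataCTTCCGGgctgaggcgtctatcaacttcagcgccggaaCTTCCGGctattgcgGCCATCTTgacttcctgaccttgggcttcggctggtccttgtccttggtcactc
Uqcr10: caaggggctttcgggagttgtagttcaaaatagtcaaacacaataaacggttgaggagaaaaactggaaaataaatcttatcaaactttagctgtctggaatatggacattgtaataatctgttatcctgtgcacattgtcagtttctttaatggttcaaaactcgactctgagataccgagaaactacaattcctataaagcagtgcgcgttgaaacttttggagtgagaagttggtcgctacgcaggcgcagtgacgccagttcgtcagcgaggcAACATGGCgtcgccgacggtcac
Sdha: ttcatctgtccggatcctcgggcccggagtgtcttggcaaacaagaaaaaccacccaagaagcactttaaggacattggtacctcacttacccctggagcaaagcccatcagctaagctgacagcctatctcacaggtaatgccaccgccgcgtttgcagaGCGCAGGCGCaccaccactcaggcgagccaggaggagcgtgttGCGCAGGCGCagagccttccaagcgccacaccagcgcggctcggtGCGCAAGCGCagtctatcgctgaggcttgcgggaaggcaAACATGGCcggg

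The motifs, searched on both strands, were GCGC, any base, then TGCGC for NRF1, CCGGAAG for ETS factors and AANATGGC for YY1, with N for any base, and none of these overlapped another in the 4 windows shown. NRF1 letters were found in 14 of 64 member promoters (21.9%), against 9.63% of the promoters of tested genes and 4.25% of the whole RefSeq table. Shares of tested genes here are over the 9157 found by symbol alone, whereas members were also matched by synonym. ETS letters were found in 18 (28.1%, against 16.5% and 8.75%), and YY1 letters in 26 (40.6%, against 9.65% and 6.96%). The estrogen-related receptor pattern TNAAGGTCA stood in 3 members (4.69%, against 0.546% of tested genes), and the GC box GGGCGG in 25 (39.1%, against 62% of tested genes). The members that fell with TDP-43 siRNA and ATP carried NRF1, ETS and YY1 letters in similar or smaller shares than the others, and the GC box in 39.6% against 37.5%: of 48 such promoters 20.8% held NRF1, 27.1% ETS and 39.6% YY1, and of 16 others 25%, 31.2% and 43.8%. A match describes the sequence and shows no binding. The YY1 letters hold an ATG, and in Uqcr10 and Sdha they lie after the annotated start. Whether such matches are translation start codons was not tested.

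In complex I, 26 of 34 members fell with TDP-43 siRNA and ATP, with a median log2 change of -0.50, and 3 fell with TDP-43 siRNA alone. The accessory subunits, which surround the catalytic core, made up most of these. Ndufb2, a membrane-arm subunit, stood at 142, 204 and 243 CPM with scrambled siRNA, 162, 142 and 136 with TDP-43 siRNA, and 116, 101 and 100 with ATP added. The libraries with ATP lay below all others, while the siRNA-alone libraries overlapped the control. Its log2 change was -0.89 (SE 0.15, edgeR adjusted p = 0.00032) with ATP and -0.42 (SE 0.15, adjusted p = 0.0444) without it. Ndufc2, also of the membrane arm, stood at 190, 250 and 272 CPM with scrambled siRNA, 146, 157 and 145 with TDP-43 siRNA, and 142, 122 and 137 with ATP added. Here both siRNA groups lay below the control without overlap. The log2 changes were -0.83 with ATP (SE 0.12, edgeR adjusted p = 0.000107) and -0.67 without it (SE 0.12, adjusted p = 0.000719), and no library left out ended either call. Ndufa7 (-0.74), Ndufa5 (-0.73) and Ndufb6 (-0.66) fell with ATP and did not pass without it, and Ndufa4 fell by 0.63 with ATP and by 0.39 without it. The calls of Ndufb2 and Ndufa4 in siRNA alone were narrow: without scrambled replicate 3, for one, their adjusted p was 0.241 and 0.155.

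The flavin and the iron-sulfur clusters of complex I lie in its nuclear-encoded core subunits, though not in each of them, and Ndufs3 holds none. Of these core subunits, 4 fell with TDP-43 siRNA and ATP: Ndufs3 (log2 -0.49), Ndufs8 (-0.45), Ndufv2 (-0.42) and Ndufs7 (-0.36). Except for Ndufs3, these calls held in 10 to 12 of 16 alternatives. Without TDP-43 siRNA and ATP replicate 3 the adjusted p was 0.0574 for Ndufs8, 0.0878 for Ndufv2 and 0.105 for Ndufs7. Without replicate 2 of that group it was 0.0749 for Ndufv2 and 0.0553 for Ndufs7, without scrambled replicate 2 it was 0.117 and 0.0871, and without scrambled replicate 3 Ndufv2 was at 0.0608. With total counts only the 3 genes stood at 0.124, 0.231 and 0.34. The NADH-binding Ndufv1 (-0.11, adjusted p = 0.514) and the large iron-sulfur subunit Ndufs1 (-0.10, adjusted p = 0.47) did not pass edgeR's test. Among the 27 members outside the core, 22 fell.

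**Figure D2:**
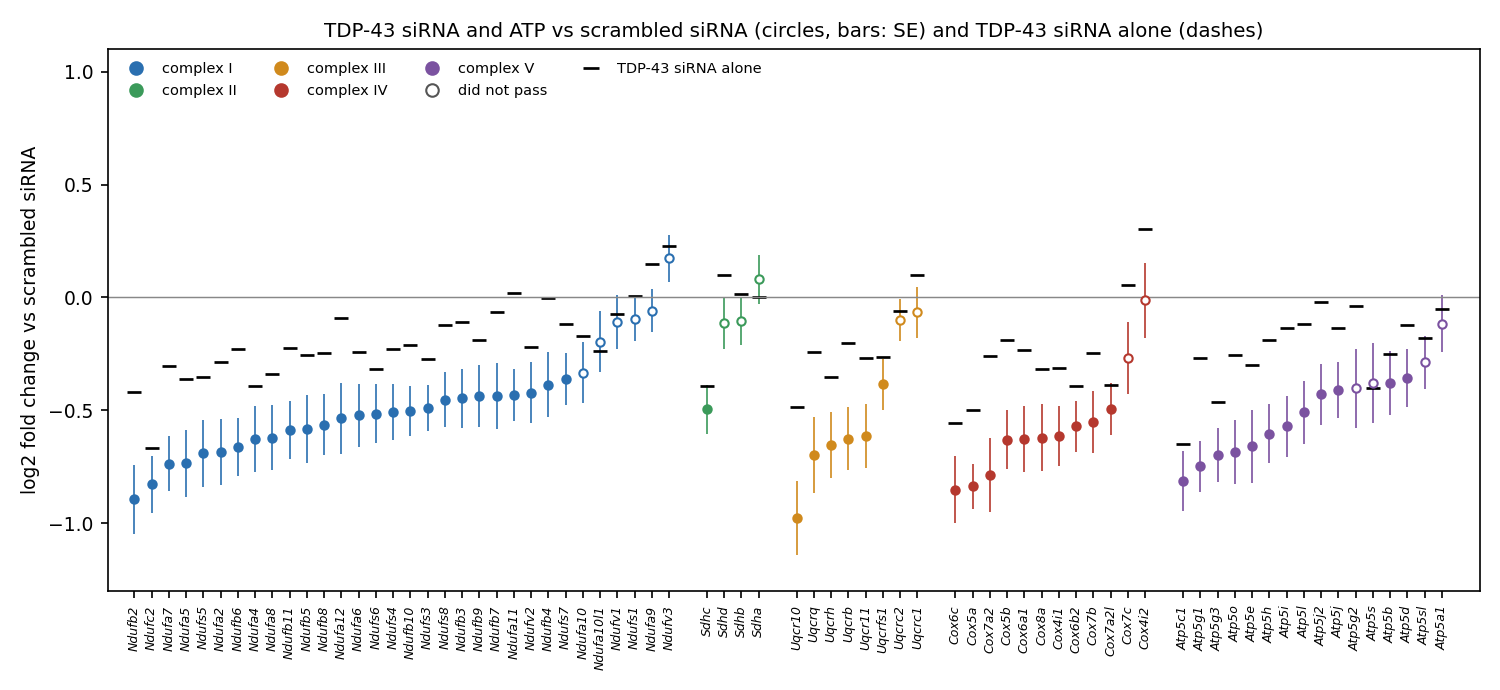
Log2 fold change against scrambled siRNA (y axis) of members, sorted within each complex; circles with SE bars are TDP-43 siRNA with ATP, filled where edgeR's adjusted p was under 0.05, and dashes are TDP-43 siRNA alone. Shown are the members that fell or did not pass, without Cox6a2 and Ndufa4l2, whose mean in each group was under 1 CPM. Circles run from -0.98 (Uqcr10) to 0.17 (Ndufv3), and most lie below their dash.

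Complex II has no mitochondrially encoded subunit, also acts in the citrate cycle, and had the median log2 change nearest 0 of the 5 complexes with TDP-43 siRNA and ATP, -0.11. Of its 4 members 1 fell, the membrane anchor Sdhc, by 0.50 with TDP-43 siRNA and ATP (SE 0.11, edgeR adjusted p = 0.00227) and by 0.39 without ATP (SE 0.11, adjusted p = 0.0112, but 0.111 with total counts only). Sdhc stood at 389, 492 and 461 CPM with scrambled siRNA, 335, 342 and 344 with TDP-43 siRNA, and 334, 308 and 309 with ATP added, and neither siRNA group overlapped the control. The flavoprotein Sdha, the catalytic subunit, stood at 194, 157 and 169 CPM with scrambled siRNA, 171, 162 and 188 with TDP-43 siRNA, and 184, 193 and 173 with ATP added, and all 3 groups overlapped. Its log2 change with ATP was 0.08 (SE 0.11, adjusted p = 0.594). The iron-sulfur subunit Sdhb (-0.11, adjusted p = 0.46) and the second anchor Sdhd (-0.11, adjusted p = 0.476) did not pass either.

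In complex III, 6 of 8 members fell with TDP-43 siRNA and ATP, with a median log2 change of -0.62, and Uqcr10 alone fell without ATP. Uqcr10, a small accessory subunit, stood at 362, 542 and 584 CPM with scrambled siRNA, 408, 314 and 339 with TDP-43 siRNA, and 286, 226 and 243 with ATP added. The ATP group lay below all other libraries, and the siRNA-alone group overlapped the low first scrambled library. Its log2 change of -0.98 (SE 0.16, edgeR adjusted p = 0.000248) with ATP was the lowest of the 75 members. Without ATP it was -0.49 (SE 0.16, adjusted p = 0.0291), a call that ended without scrambled replicate 2 (0.089) or 3 (0.134), or without TDP-43 siRNA replicate 2 (0.122) or 3 (0.0852). The other small subunits Uqcrq (-0.70), Uqcrh (-0.65), Uqcrb (-0.62) and Uqcr11 (-0.61) fell with ATP, as did the Rieske iron-sulfur protein gene Uqcrfs1 (-0.38). The call of Uqcrfs1 ended without scrambled replicate 3 (0.0521), without TDP-43 siRNA and ATP replicate 2 (0.0569) or 3 (0.0792), and with total counts only (0.267). The 2 large core proteins did not pass: Uqcrc1 was at 271 ± 34.1 CPM with scrambled siRNA and 259 ± 18.1 with TDP-43 siRNA and ATP (SD, n = 3, log2 -0.07), and Uqcrc2 at 226 ± 5.39 and 211 ± 3.55 (log2 -0.10).

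Complex IV had 10 of 13 members lower with TDP-43 siRNA and ATP, a median log2 change of -0.61, and 4 lower with TDP-43 siRNA alone. Cox5a, which contacts the catalytic core, stood at 176, 186 and 166 CPM with scrambled siRNA, 119, 136 and 118 with TDP-43 siRNA, and 105, 97.9 and 92.1 with ATP added. The 3 groups did not overlap at any step. It had the smallest p of all members with ATP (log2 -0.84, SE 0.10, edgeR adjusted p = 1.42e-05) and also passed without ATP (log2 -0.50, SE 0.10, adjusted p = 0.00132). Cox6c stood at 336, 492 and 553 CPM with scrambled siRNA, 325, 324 and 289 with TDP-43 siRNA, and 279, 240 and 247 with ATP added. Its groups did not overlap either, although the first scrambled library lay close to the siRNA-alone range. Its log2 change was -0.85 with ATP (SE 0.15, edgeR adjusted p = 0.000394) and -0.56 without (SE 0.15, adjusted p = 0.00918, but 0.0518 without scrambled replicate 3). Cox7a2 (-0.79), Cox5b (-0.63), Cox6a1 (-0.63), Cox8a (-0.62), Cox4i1 (-0.61) and Cox7b (-0.55) fell with ATP and did not pass without it.

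Several complex IV subunits come as pairs of isoforms for different tissues or oxygen levels. The ubiquitous Cox4i1 stood at 785 ± 127, 632 ± 16.3 and 513 ± 55.6 CPM (SD, n = 3) in the scrambled, TDP-43 siRNA and ATP groups, while the low-oxygen and lung form Cox4i2 stood at 9.58 ± 1.19, 11.8 ± 1.6 and 9.51 ± 0.161 CPM and did not pass. The non-muscle Cox6a1 stood at 1248 ± 232, 1062 ± 85.4 and 808 ± 81.8 CPM, while its heart and muscle form Cox6a2 stayed below 1 CPM in every library. Ndufa4 stood at 607 ± 132, 463 ± 25 and 392 ± 41.3 CPM, and its low-oxygen relative Ndufa4l2 stayed below 1.5 CPM. Cox8a stood at 522 ± 133, 418 ± 21.2 and 339 ± 22.9 CPM, and the muscle form Cox8b had 20 counts in all. In each of these 4 pairs the form with more counts, not adjusted for length, fell with ATP, and the other did not pass or was not tested. Cox6b2, known as the testis form, stood at 46.7 ± 0.463, 35.6 ± 3.93 and 31.4 ± 2.49 CPM and fell by 0.57 with ATP and by 0.39 without it. Cox7a2l, a factor that helps complexes III and IV join into supercomplexes, fell by 0.49 and 0.39, both calls ending with total counts only (adjusted p = 0.0604 and 0.139). The calls of both in siRNA alone ended when single libraries were left out, with adjusted p of 0.0627 and 0.0539 for Cox6b2 (TDP-43 siRNA replicates 2 and 3) and of 0.0537 and 0.0579 for Cox7a2l (scrambled replicate 3 and TDP-43 siRNA replicate 1). Cox7c (-0.27, adjusted p = 0.206) did not pass.

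In complex V, 12 of 16 members fell with TDP-43 siRNA and ATP (median log2 change -0.47) and 2 with TDP-43 siRNA alone. In the catalytic F1 head 4 of 5 fell, for 2 of them narrowly. The gamma subunit gene Atp5c1, the rotating shaft, stood at 260, 400 and 332 CPM with scrambled siRNA, 217, 210 and 206 with TDP-43 siRNA, and 201, 188 and 174 with ATP added, with no overlap between groups. Its log2 change was -0.81 with ATP (SE 0.13, edgeR adjusted p = 0.00021) and -0.65 without (SE 0.13, adjusted p = 0.0015). The catalytic beta subunit Atp5b fell by 0.38 with ATP (adjusted p = 0.044), as did Atp5e by 0.66 and Atp5d by 0.36. The calls of Atp5b and Atp5d held in only 6 of 16 alternatives. Without TDP-43 siRNA and ATP replicate 1, 2 or 3 the adjusted p was 0.0592, 0.119 and 0.177 for Atp5b and 0.0656, 0.115 and 0.131 for Atp5d. Without scrambled replicate 1 it was 0.14 and 0.0608, without scrambled replicate 2 Atp5d was at 0.0981, and with total counts only the 2 genes stood at 0.371 and 0.404. The alpha subunit Atp5a1 did not pass, at 761 ± 97.8 CPM with scrambled siRNA, 733 ± 56.4 with TDP-43 siRNA and 702 ± 58.5 with ATP added (SD, n = 3). All 6 tested members of the stalk and the rest of the membrane sector fell with ATP, among them Atp5o (-0.69), Atp5h (-0.60) and Atp5i (-0.57), and 0 of the 6 passed without it, where 0 had an unadjusted p under 0.05. Atp5l (-0.51), Atp5j2 (-0.43) and Atp5j (-0.41) held in 14, 9 and 10 of 16 alternatives. Their adjusted p was 0.0538, 0.0995 and 0.0638 without TDP-43 siRNA and ATP replicate 2, and Atp5j2 and Atp5j were at 0.0836 and 0.091 without replicate 3 of that group and at 0.0549 and 0.0825 without scrambled replicate 2. Atp5j2 was also lost without scrambled replicate 3 (0.0956). With total counts only the 3 were at 0.0875, 0.21 and 0.218.

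The 3 genes of the c-ring encode the same mature rotor protein behind different import signals. Atp5g1 stood at 123, 166 and 128 CPM with scrambled siRNA, 115, 115 and 116 with TDP-43 siRNA, and 86.8, 82.8 and 78.2 with ATP added, 3 levels without overlap. It fell with ATP (log2 -0.75, SE 0.11, edgeR adjusted p = 0.000121) and did not pass without it (-0.27, adjusted p = 0.0774). Atp5g3 fell in both, by 0.70 and 0.46, the latter call ending with total counts only (adjusted p = 0.0581). Atp5g2 stood at 396, 747 and 470 CPM with scrambled siRNA, 532, 536 and 504 with TDP-43 siRNA and 436, 379 and 405 with ATP added, so the scrambled libraries overlapped both other groups, and it did not pass with ATP (-0.40, adjusted p = 0.0817). Reads from the shared coding stretch of these 3 genes could have been split among them, as could those of Ndufa10 and its near copy Ndufa10l1, neither of which passed. Atp5s and Atp5sl, caught by the symbol rule, did not pass with ATP (adjusted p = 0.105 and 0.0685).

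**Figure D3:**
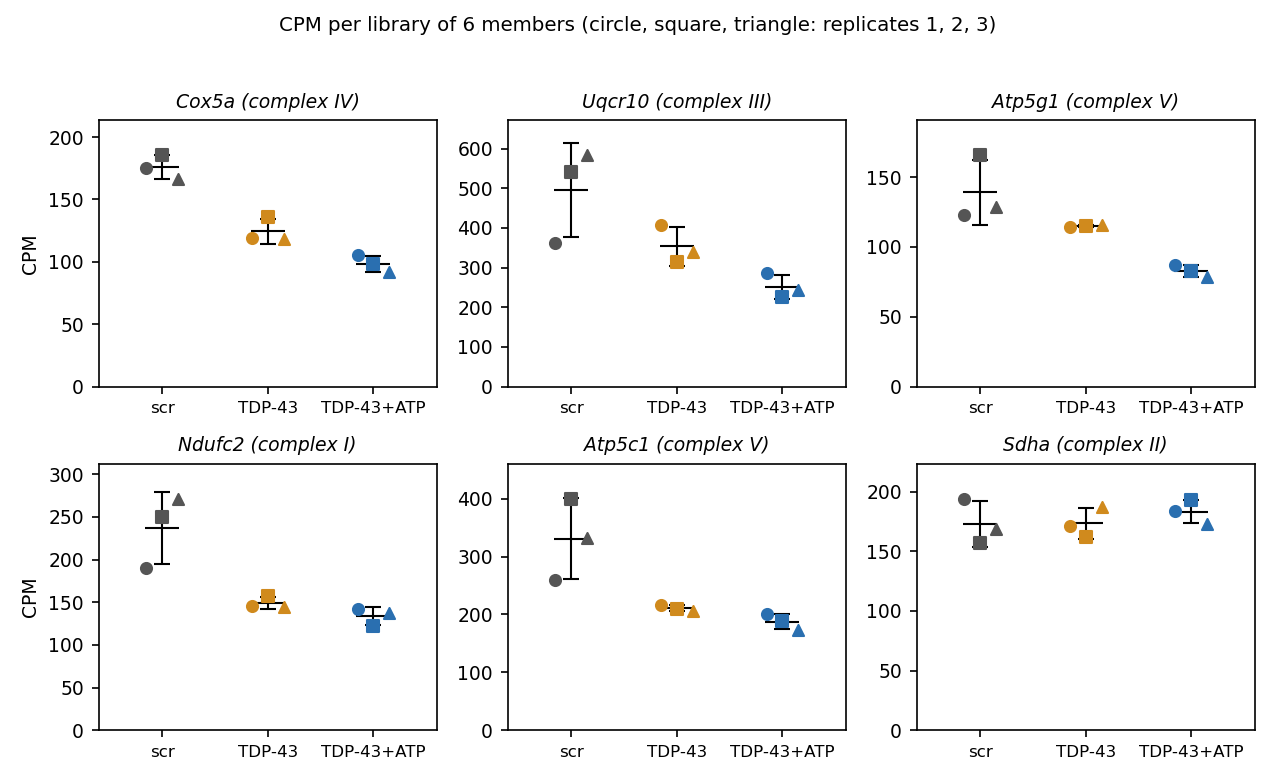
CPM per library (y axis, from 0) of 6 members; symbols are replicates 1 to 3, lines the mean and bars the SD of 3 libraries. Cox5a and Atp5g1 step down from group to group without overlap, Ndufc2 and Atp5c1 are lower in both siRNA groups, and Sdha overlaps in all 3.

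The third comparison asked what ATP adds once TDP-43 siRNA is present. In edgeR's test 0 members were called at an adjusted p under 0.05 in either direction, where 0.141% of all genes tested were lower and 0.926% higher. At an unadjusted p under 0.05, 36 of the 75 members were lower and 0 higher, where 5.94% of all genes were lower and 6.65% higher. The log2 difference was negative for 72 of the 75 (50.1% of all genes), with a median of -0.30 against -0.00 for all genes, and in 46 members the 3 libraries with ATP all lay below the 3 without, which held for 12.7% of all genes. The smallest adjusted p was that of Atp5g1 (0.0587, log2 difference -0.48), followed by Ndufa11 (0.0862, -0.45). All 6 stalk and membrane-sector genes of complex V were in the non-overlapping set, with differences between -0.43 and -0.28. This comparison shares its libraries with TDP-43 siRNA alone with the first comparison and those with ATP with the second.

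These counts moved with the libraries that entered the fit. The biological coefficient of variation shared by all genes was 13.7% over the 9 libraries, 11.1% without scrambled replicate 1 and 9.89% over only the 6 libraries compared. With only those 6 libraries edgeR called 33 members lower, where 3.23% of all genes were lower: 14 of complex I, 0 of II, 4 of III, 7 of IV and 8 of V. Without scrambled replicate 1 it called 16, where 1.85% of all genes were lower. DESeq2 called 6 over all 9, where 1.4% of all genes were lower. Atp5g1 was the first by p in each of the 3 (adjusted p 0.00332, 0.014 and 0.00651). The median difference over the members was -0.30 in each. All 3 fits hold the same libraries with and without ATP, so this value could hardly move. With 1 of those 6 libraries left out in turn, the median lay between -0.37 and -0.26, and 0 members were called lower.

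**Figure D4:**
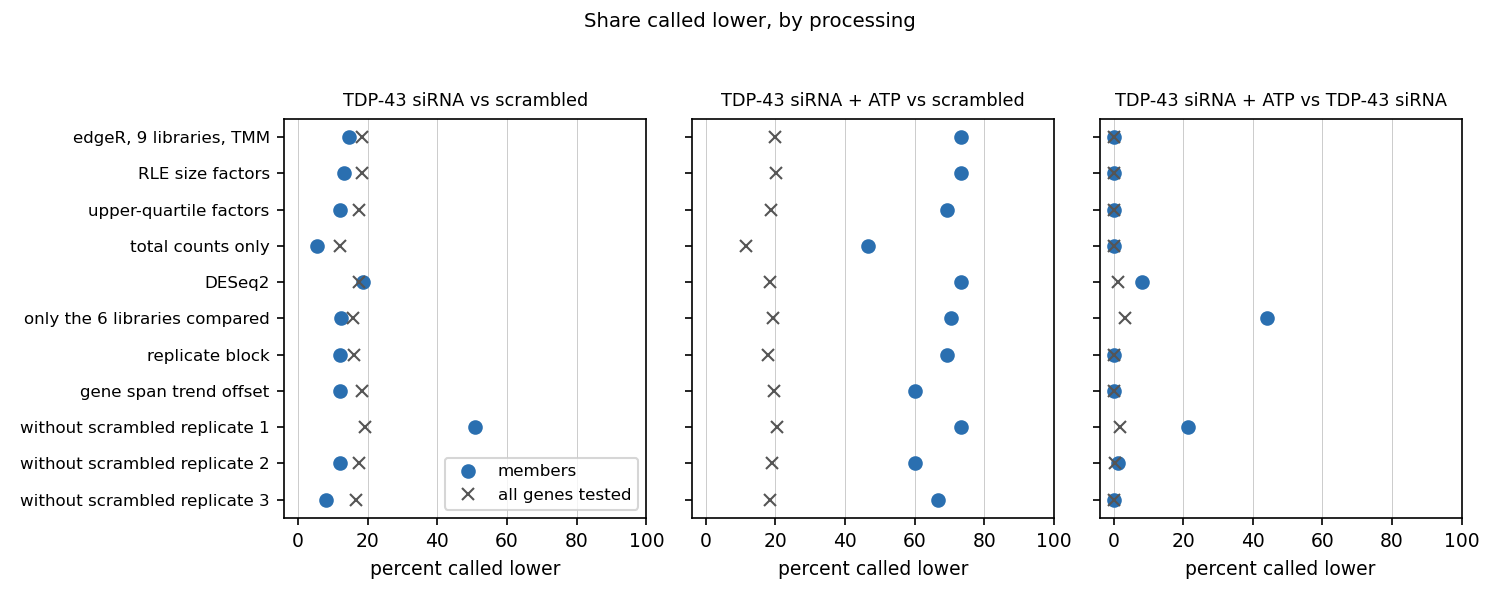
Percent of members (circles) and of all genes tested (crosses) called lower at an adjusted p under 0.05 in each of the 3 comparisons (panels), by processing (rows; not all alternatives are drawn). In the rows drawn, the members of the middle panel lie between 46.7% and 73.3% with all genes at 20.5% or less, whereas in the outer panels the circles move away from the crosses mainly without scrambled replicate 1 or, on the right, with only the 6 libraries compared.

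Scaling sets where 0 lies. With total counts in place of TMM factors the median log2 change of all genes shifted to 0.18 with TDP-43 siRNA and 0.24 with TDP-43 siRNA and ATP, and the share of calls that were higher went from 47.1% to 70.5% and from 46.6% to 74.5%. On that scale the members' medians were -0.06 and -0.28. With siRNA alone 4 members fell and 4 rose, where 11.9% of all genes were lower and 3427 of 12096 higher. With ATP 35 members fell and 3 rose, where 11.6% of all genes were lower and 4099 of 12096 higher. As a plain share of all counts the members took 1.709, 2.08 and 2.075% in the scrambled libraries, 1.948, 1.843 and 1.875% with TDP-43 siRNA, and 1.716, 1.579 and 1.552% with TDP-43 siRNA and ATP. On this scale the first scrambled library lay within the range of the 6 libraries with TDP-43 siRNA.

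The members share other features. They are short genes: the median genomic span in RefSeq GRCr8 was 7181 bases, against 23827 for all tested genes with a span. Of the 49 members in the shortest 25% of spans 41 fell with TDP-43 siRNA and ATP, and of the 7 in the longest 50% 2 did. Other genes followed span as well, in smaller shares: 30.6% fell in the shortest 10% and 25.1% in the next bin, against 15.9% and 17% in the 2 longest bins. With a trend over span removed, 19.5% of all genes fell with ATP. In that fit, an alternative chosen after seeing the data, 45 members fell and 44 of these were among the 55. They also had many counts: 43 of the 75 were in the top 10% of genes by mean CPM, not adjusted for length, and 35 of those fell with ATP, where 34.2% of the other genes in that bin fell. RNA quality values were not at hand, and the part of span or abundance in the result was not tested further.

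**Figure D5:**
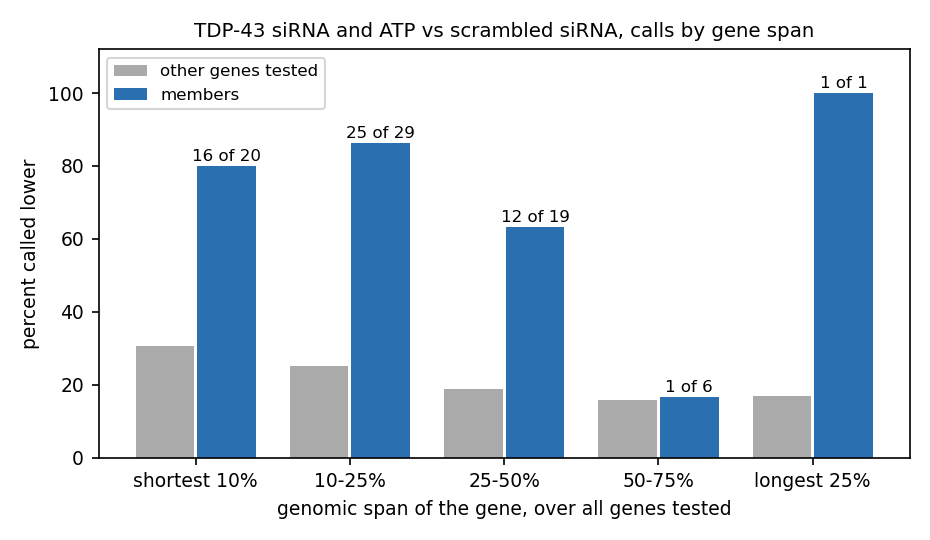
Percent of genes called lower with TDP-43 siRNA and ATP, relative to scrambled siRNA (y axis), for members (blue, with counts) and other tested genes (grey), in bins of genomic span. Members were called lower in 16 of 20, 25 of 29 and 12 of 19 in the 3 shortest bins, where other genes stood at 30.6%, 25.1% and 18.8%; the longest bins hold 6 and 1 members.

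Genes that work with the subunits were read against the same background, 20% of all genes lower and 17.4% higher with ATP, and 18.2% and 16.2% without. Of 38 tested assembly factors, which build the complexes but are not part of them, 13 fell and 4 rose with TDP-43 siRNA and ATP. The share lower was above that of all genes, and the share higher was below it. Without ATP 4 fell and 6 rose, both shares below those of all genes. The median log2 changes of these factors were -0.17 with ATP and 0.01 without. Tmem126b, a complex I assembly factor, stood at 52.4 ± 8.48, 36.6 ± 4.43 and 31.3 ± 2.98 CPM (SD, n = 3) in the scrambled, TDP-43 siRNA and ATP groups, with log2 changes of -0.52 and -0.74. Of the complex IV factors, Cox19 fell in both (-0.37 and -0.65), Pet100 fell with ATP (-0.68) and did not pass without it (-0.31, edgeR adjusted p = 0.0639), and Coa5 rose in both (0.34 and 0.47). Of 9 tested electron carrier genes, cytochrome c and coenzyme Q synthesis, 3 fell with ATP and 0 passed without it, where 2 had an unadjusted p under 0.05. Cytochrome c itself, Cycs, stood at 105, 137 and 92.3 CPM with scrambled siRNA, 82.2, 104 and 70.0 with TDP-43 siRNA, and 66.2, 58.9 and 61.9 with ATP added, the last group below all others. Its log2 change with ATP was -0.84 (SE 0.15, edgeR adjusted p = 0.000501). Coq7 (-0.51) and Coq3 (-0.37) were the other 2.

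Of 15 tested regulators of the chain's transcription and of mitochondrial RNA, 4 rose and 2 fell with TDP-43 siRNA and ATP, and 4 rose and 1 fell without ATP, counts too small to set apart from those shares of all genes. Pprc1, a coactivator of the PGC-1 family, rose from 43.7 ± 4.38 CPM with scrambled siRNA to 69.1 ± 3.89 with TDP-43 siRNA and 69.0 ± 3.79 with ATP added (SD, n = 3; log2 0.66 in both, edgeR adjusted p = 0.000213 and 0.000192). The mitochondrial RNA polymerase gene Polrmt rose by 0.65 and 0.59, and Gabpa, the DNA-binding subunit of GABP, by 0.41 and 0.44. Gabpa lies next to Atp5j, and the 2 overlap in the GRCr8 annotation. Nrf1 stood at 23.7 ± 2.28, 24.9 ± 3.05 and 26.3 ± 1.62 CPM and Tfam, which packages and transcribes mitochondrial DNA, at 75.6 ± 1.12, 73.2 ± 8.59 and 69.9 ± 5.87 CPM, and neither passed. Ppargc1b, a coactivator of the same family, fell by 1.32 and 1.23 from 4.05 ± 1.28 CPM, and Slirp, which stabilises mitochondrial mRNA, fell by 0.47 with ATP and did not pass without it (-0.06). Nrf1, Tfam and Ppargc1b were chosen after their values were seen. Of 16 tested citrate cycle genes 4 fell and 1 rose with ATP, and 3 fell and 1 rose without, with the share lower near that of all genes. Suclg1, a subunit of succinyl-CoA ligase, fell by 0.44 and 0.37, while Idh3a, of the NAD-dependent isocitrate dehydrogenase, rose by 0.34 and 0.31.

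Over all members, the group means stepped down from scrambled siRNA to TDP-43 siRNA to TDP-43 siRNA and ATP in 60 of 75. This was not counted over all genes, so the 60 has no background to be read against. The 11 that fell with TDP-43 siRNA alone all fell with ATP too, 44 fell only as calls with ATP, and 1 rose in both; these counts share the scrambled libraries and do not test a difference between the comparisons, which is the third comparison above. With ATP, all 3 libraries lay below all 3 scrambled ones for 49 members, where this held for 24.1% of all genes. In 47 of the 55 that fell the groups did not overlap, and in 8 they did. The same split was not counted among all genes called lower, so the 47 has no background either. Leaving aside the 3 genes that are no subunits, 54 of 72 fell and 1 rose with ATP, and 10 fell and 1 rose with TDP-43 siRNA alone.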

How the data were processed

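Per the labels' protocols, a TruSeq kit was used for poly(A) RNA. The authors deposited raw counts per gene symbol for 9 poly(A) libraries; their repeat-element counts served only for library totals. Bowtie2, TopHat2, Trimmomatic, DESeq2 and rn6 appear in the submitters' processing notes, without roles or versions. How reads were counted, with or without strand, is not given in the sources used here. Rows named as calendar dates (26, with 0.286 to 0.331% of counts) were dropped. Groups came from the sample labels. All 9 libraries entered 1 fit per gene with edgeR 4.0.16 in R 4.3.3 (filterByExpr, TMM, quasi-likelihood, Benjamini-Hochberg over 12096 genes, threshold 0.05), tested on simulated data. SEs derive from the log2 change and its F statistic. Alternatives were DESeq2 1.42.0, other scalings and filters, fewer libraries, a replicate block and a span trend. Members, lists and printed promoters were chosen with earlier results of these data known. Named genes were up to 5 per complex by p with ATP, isoform pairs, c-ring genes, symbols that are no subunit, and up to 4 per context list by p; others, all with printed values, were chosen after seeing them. Libraries of a group differed by more than sampling noise, with a chi-square of 11.02 or more per degree of freedom. The 1 member that rose is not reported here by name.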

Additional observations from a re-analysis of the deposited data

How the results depend on the processing

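With total counts only, 4 members fell and 4 rose with TDP-43 siRNA, where 11.9% of all genes were lower. With TDP-43 siRNA and ATP 35 members fell and 3 rose, where 11.6% of all genes were lower. With the span trend removed 2 rose in each of these comparisons. Between TDP-43 siRNA with and without ATP, the count of members lower, 0 in the reported fit, was 6 with DESeq2, 1 with no low-count filter and 33 with only the 6 libraries compared. Of all genes, 1.4%, 0.249% and 3.23% were lower in these 3 fits. With single libraries left out, members lower ranged from 6 to 38 with TDP-43 siRNA, members higher from 0 to 1 with TDP-43 siRNA and ATP, and members lower from 0 to 16 between the groups with and without ATP. The share of all genes lower ranged from 13.8% to 19.2% in the first of these and from 0 to 1.85% in the last. Without scrambled replicate 1, the members' median log2 change with TDP-43 siRNA was -0.32, against -0.23 in the reported fit. The cause of these shifts was not tested.

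Of the 55 members that fell with TDP-43 siRNA and ATP, 34 kept the call in all 16 alternatives run on that comparison and 21 lost it in 1 or more, 20 of them with total counts only and 15 with a library left out. Of the 11 that fell with TDP-43 siRNA alone, 3 kept it in all 16. Among the named members, signs turned only for genes that had not passed. With TDP-43 siRNA, Atp5g2 was at 0.14 with total counts and 0.0136 with the span trend and replicate block, and Sdha at -0.0003 with the 10 CPM filter, -0.0132 with only 6 libraries, -0.0234 with the span trend and -0.0217 with that trend and the replicate block. With TDP-43 siRNA and ATP, Cox4i2 was at 0.0162 with upper-quartile factors, 0.21 with total counts, and 0.0183 and 0.0204 with the span trend, without and with the replicate block. Sdhb and Sdhd were at 0.12 and 0.11 with total counts, and Cox6a2 at -0.32 with DESeq2, -0.17 with no filter and -0.0388 with the replicate block. With libraries left out, the log2 change with TDP-43 siRNA ranged from -0.23 to 2.63 for Cox6a2, -0.0641 to 0.0945 for Sdha, -0.21 to 0.28 for Atp5g2, -0.0545 to 0.0711 for Sdhb and -0.18 to 1.05 for Ndufa4l2. With ATP it ranged from -0.11 to 0.054 for Cox4i2, -1.26 to 1.95 for Cox6a2 and -0.0667 to 0.33 for Ndufa4l2. Between the groups with and without ATP it ranged from -0.11 to 0.12 for Atp5s, -0.92 to 0.32 for Ndufa4l2 and -0.16 to 0.0058 for Atp5sl.

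Libraries with the same replicate number did not deviate together (correlations from -0.15 to 0.12), so the numbers were not taken as pairs. With a replicate block 9 members fell with TDP-43 siRNA, 52 with ATP and 0 between the 2. Of all genes, 15.9%, 17.8% and 0.0496% were lower in these comparisons. Alternatives with protein length were not run. Where an alternative leaves 2 libraries in a group, the spread is pooled over groups.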
